A study of Mus musculus with 10 samples.

Results

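Complement is a set of plasma and membrane proteins that tags and lyses cells, and its genes are also transcribed locally in the gut. The members described here are 36 genes for complement components, receptors and regulators, listed by name. The platform annotation held 35 of them, of 19505 genes measured in all; Cfd, which encodes the alternative pathway protease factor D, is not analysed here. Each was measured by 1 probe set.

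Small intestine organoids, which are epithelial cultures grown here from BALB/c mice, were profiled on 10 arrays. In 5 cultures, 5 mg/ml pegtarazimod was given together with 20 ng/ml recombinant murine TNF for 48 h. Pegtarazimod is a PEG-linked peptide known to inhibit activation of complement component C1 and the enzyme myeloperoxidase. The other 5 cultures received the same TNF for the same time with 2.625 mM PEG as vehicle. All cultures thus carried TNF, and no culture without it was analysed here. The series design calls the samples biological replicates but does not say what differed between them, so p-values measure the spread between these samples. How much PEG the pegtarazimod dose carried is not stated.

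The classical pathway starts when C1q binds its target and activates the proteases C1r and C1s. The lectin pathway uses mannose-binding lectins and ficolins with the MASP proteases. Both cleave C4 and C2, while the alternative pathway uses factor B, and all meet at C3 and continue to C5 and a membrane pore of C6 to C9. Factor I, C1 inhibitor and membrane proteins such as CD55 and Crry hold these steps in check. The liver makes most of the plasma components, and macrophages are a main source of C1q. Intestinal epithelium is known to transcribe some components, and TNF is known to induce several of them, factor B among them, in epithelial cells.

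No complement gene passed the test for a difference between pegtarazimod and vehicle in the fit without covariates. Of the 35 measured members, 0 were higher and 0 were lower by limma (Benjamini-Hochberg adjusted p over all genes), where 4.89% of all genes tested were called, 2.50% higher and 2.39% lower. Cfi, the gene of factor I, came nearest, at 1.74-fold lower with pegtarazimod (adjusted p = 0.0700). It was called lower once replicates 1 and 2 against 3 to 5 were fitted as a block (adjusted p = 0.00638), where 9.33% of all genes were called. This grouping was seen in these same arrays and is not named in the labels, as described with the values of Cfi. In the fit without a block it was the only member with an unadjusted limma p below 0.05 (1 of 35, against 19.0% of all genes), and the next lowest adjusted p was 0.342 (Cr2). For 34 members, all except Cfi, the 95% interval of the difference excluded a 2-fold change of the signal in either direction (97.1%, against 97.1% of all genes). Of these 34, 16 lay within a background range described below. For those the interval bounds the array signal only, not a change in transcripts.

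Before the single genes, the signal itself has to be placed, since the files hold no detection calls. Receptor genes of olfactory and vomeronasal neurons served as a range for genes with no known use in this epithelium. The 95th percentile of the means of 1412 such genes was 4.35 with pegtarazimod and 4.32 with vehicle (log2). By this measure 16 of the 35 members lay within the range in both groups, 2 lay within it in 1 group (Masp1 and Masp2, with pegtarazimod), and 17 lay above it in both. Probe sets differ in how strongly they bind, so a member within the range may still be transcribed and one just above it may not. Among all genes, 0.425% of the 6112 within the range in both groups were called, against 6.87% of the 12978 above it.

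**Figure D1:**
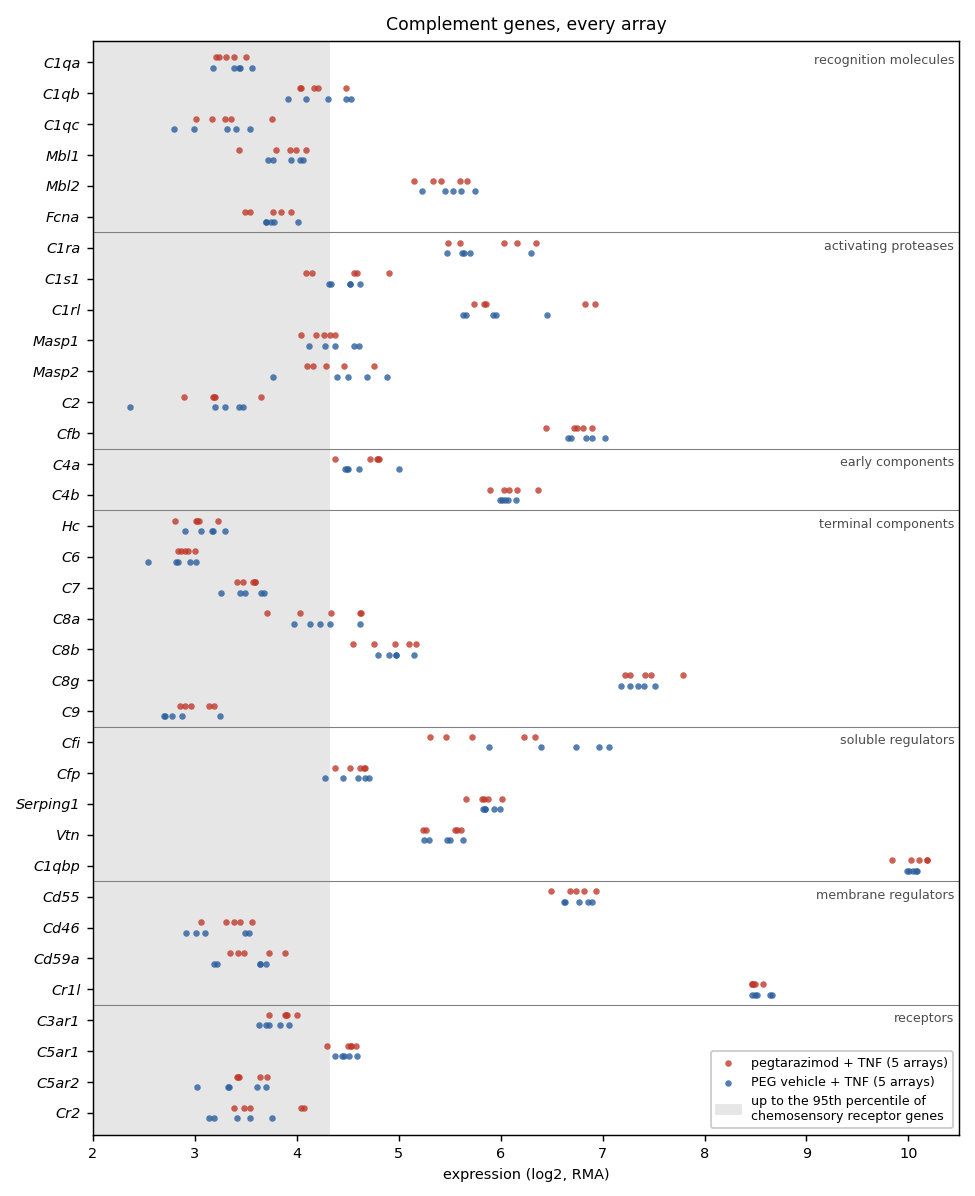
Expression (log2, RMA) of 35 complement genes on every array, grouped by role, with pegtarazimod points above vehicle points in each row. The grey band ends at 4.32, the lower of the 2 groups' 95th percentiles of chemosensory receptor genes; 16 genes have both means within the range, and the groups of no gene separate fully.

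The epithelial markers matched the labelled tissue, while some markers of other cell types also gave signal above the range. All 8 epithelial markers lay above the chemosensory range in both groups, among them Epcam at 10.79 ± 0.05 with pegtarazimod and 10.67 ± 0.05 with vehicle (log2, SD, n = 5 each). Of the 8, 1 was called higher (Krt19). Of 11 measured leukocyte markers, 8 lay within the range in both groups, including the defining markers Ptprc and Csf1r, and 2 (Cd14 and Lyz2) lay above it in both. The summed level of the 11 was 46.6 to 48.3 with pegtarazimod and 46.4 to 49.6 with vehicle. Of 7 measured fibroblast markers, 4 lay above the range in both groups, Col1a1 among them, and 3 (Col3a1, Dcn and Lum) lay within it in both. Of 5 endothelial markers, 3 lay above it in both groups, Pecam1 among them, and 2 (Cdh5 and Kdr) lay within it in both. The fibroblast sum over 7 markers was 33.5 to 35.8 with pegtarazimod and 33.2 to 35.0 with vehicle, and 1 of the 7, Vim, was called higher. The endothelial sum over 5 markers was 20.5 to 21.4 with pegtarazimod and 20.6 to 21.8 with vehicle, and the sum over 6 lymphocyte markers, 5 of them within the range, was 23.8 to 24.2 with pegtarazimod and 23.0 to 23.5 with vehicle. The lymphocyte sums, mostly of markers within the range, did not overlap between the groups, although 0 of the 6 markers were called. How often such sums separate over all genes was not computed. Of single genes, 6.71% had groups that did not overlap. The part of these cell types in the complement values was not tested.

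The arrays of both groups fell into the same 2 subsets over all genes, replicates 1 and 2 and replicates 3 to 5. After group means were removed, the first principal component (33.4% of the variance) placed pegtarazimod replicates 1 and 2 at -27.6 and -19.0 and the others at 11.4 to 21.2, and vehicle replicates 1 and 2 at -13.5 and -12.0 and the others at 8.20 to 9.02. The labels name no batch. Differences within the 2 subsets are therefore given beside several of the results.

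The recognition molecules gave little signal. The C1q chain genes C1qa, C1qb and C1qc, which together encode the molecule that starts the classical pathway, all lay within the chemosensory range in both groups. With the limit at the 90th percentile of the receptor genes, C1qb no longer did. C1qa read 3.39, 3.20, 3.30, 3.24 and 3.50 with pegtarazimod and 3.17, 3.43, 3.56, 3.44 and 3.39 with vehicle (log2, replicates 1 to 5). The 2 sets of values overlapped throughout. Its difference was -0.07 ± 0.10 (SE), with an interval that excluded signals more than 1.10-fold higher or 1.21-fold lower. C1qb differed by -0.08 (interval -0.36 to 0.20) and C1qc by 0.11 (-0.23 to 0.44). Of the 11 measured leukocyte markers, 8 lay within the range in both groups too, Csf1r among them, while Cd14 and Lyz2 lay above it in both. Their relation to the C1q signal was not tested.

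Among the lectin pathway's recognition genes, Mbl1 (mannose-binding lectin A) and Fcna (ficolin A) were also within the range, with differences of -0.05 and -0.07. Mbl2, which encodes mannose-binding lectin C, lay above it, at 5.43 ± 0.21 with pegtarazimod and 5.52 ± 0.19 with vehicle (log2, SD, n = 5 each). Its groups overlapped, and its interval excluded a rise above 1.13-fold and a fall beyond 1.27-fold. Over the 6 recognition genes, 0 were called (against 4.89% of all genes). The differences ran from -0.08 to 0.11, and their median was -0.07, beside 0.00 over all genes.

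Among the activating proteases, C1rl had the largest SE of any member (0.24). C1ra and C1rl, which encode C1r and a C1r-like protease, are neighbours on chromosome 6. Both had their highest pegtarazimod values in replicates 1 and 2. C1s1, also on chromosome 6, did too (4.59 and 4.91 against 4.09, 4.15 and 4.57). The 250 bases upstream of the annotated starts of C1rl and C1ra, though not of C1s1, are shown because these neighbours shared that pattern. Those of C1qc are shown as the only member window searched that held an NF-kB consensus. Sequences are RefSeq's on GRCm38.p6, 5′ to 3′ on the gene's strand, and capitals mark the NF-kB match.
C1rl, chr6:124492863-124493112, plus strand: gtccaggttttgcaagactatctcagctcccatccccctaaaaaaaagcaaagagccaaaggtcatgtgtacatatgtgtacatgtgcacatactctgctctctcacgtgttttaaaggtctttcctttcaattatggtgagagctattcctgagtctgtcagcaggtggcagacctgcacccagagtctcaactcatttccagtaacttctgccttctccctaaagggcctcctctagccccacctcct
C1ra, chr6:124512371-124512620, plus strand: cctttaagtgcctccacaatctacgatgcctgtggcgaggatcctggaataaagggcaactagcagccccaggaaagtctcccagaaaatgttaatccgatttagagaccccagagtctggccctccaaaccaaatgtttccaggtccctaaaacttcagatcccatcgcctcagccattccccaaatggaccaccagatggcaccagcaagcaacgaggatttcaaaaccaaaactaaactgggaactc
C1qc, chr4:136892915-136893164, minus strand: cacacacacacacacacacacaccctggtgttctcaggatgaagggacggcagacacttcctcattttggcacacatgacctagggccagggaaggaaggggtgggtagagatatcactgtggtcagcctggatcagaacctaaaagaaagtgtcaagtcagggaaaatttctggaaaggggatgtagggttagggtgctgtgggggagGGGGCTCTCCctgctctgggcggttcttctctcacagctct

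Consensus motifs were searched on both strands of these windows, and matches were allowed to overlap. The promoter table held 31 windows for 28 of the 36 listed genes. It held none for Cfi, Cfb, C1qa, C2, C4a, C4b, Masp1 and Serping1, which were therefore not searched. The NF-kB consensus matched 1 member window (C1qc, starting at -41 from the annotated start), against 7.25% of all 32851 windows. The consensus of interferon regulatory factors, a pair of GAAA separated by 2 bases, matched 1 member window (Cd59a) and 2.98% of all windows, and the STAT motif TTCNNNGAA matched 3 (C7, C8a, Masp2) and 7.02% of all. TATAAA matched 4 member windows and 12.4% of all. The C1rl and C1ra windows matched none of them. These are letter matches only.

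C1rl read 6.83, 6.92, 5.85, 5.83 and 5.74 with pegtarazimod and 5.93, 6.46, 5.63, 5.66 and 5.96 with vehicle (log2, replicates 1 to 5). Pegtarazimod replicates 1 and 2 were above every vehicle array, and the other 3 lay among them. The difference over all arrays was 0.31 ± 0.24 (SE, limma adjusted p = 0.558), and its interval reached 1.77-fold higher and 1.15-fold lower. With the 2 subsets as a block the interval was 0.02 to 0.60 (adjusted p = 0.194). With the replicate number as a block it was 0.01 to 0.61 (adjusted p = 0.226). Both intervals lay above 0, but neither fit passed over all genes. Within replicates 1 and 2 the difference was 0.69 (adjusted p = 0.0343), and within replicates 3 to 5 it was 0.06 (adjusted p = 0.904). C1rl was the only member called within replicates 1 and 2 (1 of 35, against 6.30% of all genes). The difference between the 2 subsets, 0.63 (interval 0.14 to 1.12), did not pass over all genes (adjusted p = 0.503), where 0.0256% were called.

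C1ra read 6.16, 6.34, 6.04, 5.60 and 5.49 with pegtarazimod and 5.64, 6.30, 5.48, 5.62 and 5.70 with vehicle (log2). Vehicle replicate 2 was as high as the highest pegtarazimod arrays, and the groups overlapped. The difference was 0.18 ± 0.18 (SE, adjusted p = 0.675), by 0.28 within replicates 1 and 2 and by 0.11 within replicates 3 to 5. C1rb, a close copy of C1ra named after its values were seen, differed by 0.21 over all arrays, by 0.51 within replicates 1 and 2 and by less than 0.01 within replicates 3 to 5. Probes for C1ra and C1rb, C1s1 and C1s2, C4a and C4b, Cd55 and Cd55b, and Cd59a and Cd59b may each take up signal from the other copy.

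C1s1, which encodes the protease that cleaves C4 and C2, averaged 4.46 ± 0.34 with pegtarazimod and 4.46 ± 0.13 with vehicle (log2, SD, n = 5 each), just above the chemosensory range. Its interval, -0.31 to 0.30, covered 1.23-fold higher and 1.24-fold lower. C1s1 differed by 0.18 within replicates 1 and 2 and by -0.12 within replicates 3 to 5. The MASP protease genes Masp1 and Masp2 differed by -0.15 and -0.10, and C2 lay within the range in both groups. C2 differed by -0.42 within replicates 1 and 2 and by 0.39 within replicates 3 to 5, neither of which passed (adjusted p = 0.471 and 0.424), nor did the difference between them (adjusted p = 0.598).

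Cfb, which encodes factor B, the protease subunit of the alternative pathway's convertase, was well above the range and close to equal in both groups. It read 6.75, 6.72, 6.81, 6.89 and 6.44 with pegtarazimod and 6.66, 6.69, 6.90, 6.83 and 7.03 with vehicle (log2). The values of the 2 groups interleaved. The difference was -0.10 ± 0.11 (SE, adjusted p = 0.706), and the interval excluded a rise above 1.10-fold and a fall beyond 1.25-fold. It differed by 0.06 within replicates 1 and 2 and by -0.20 within replicates 3 to 5.

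**Figure D2:**
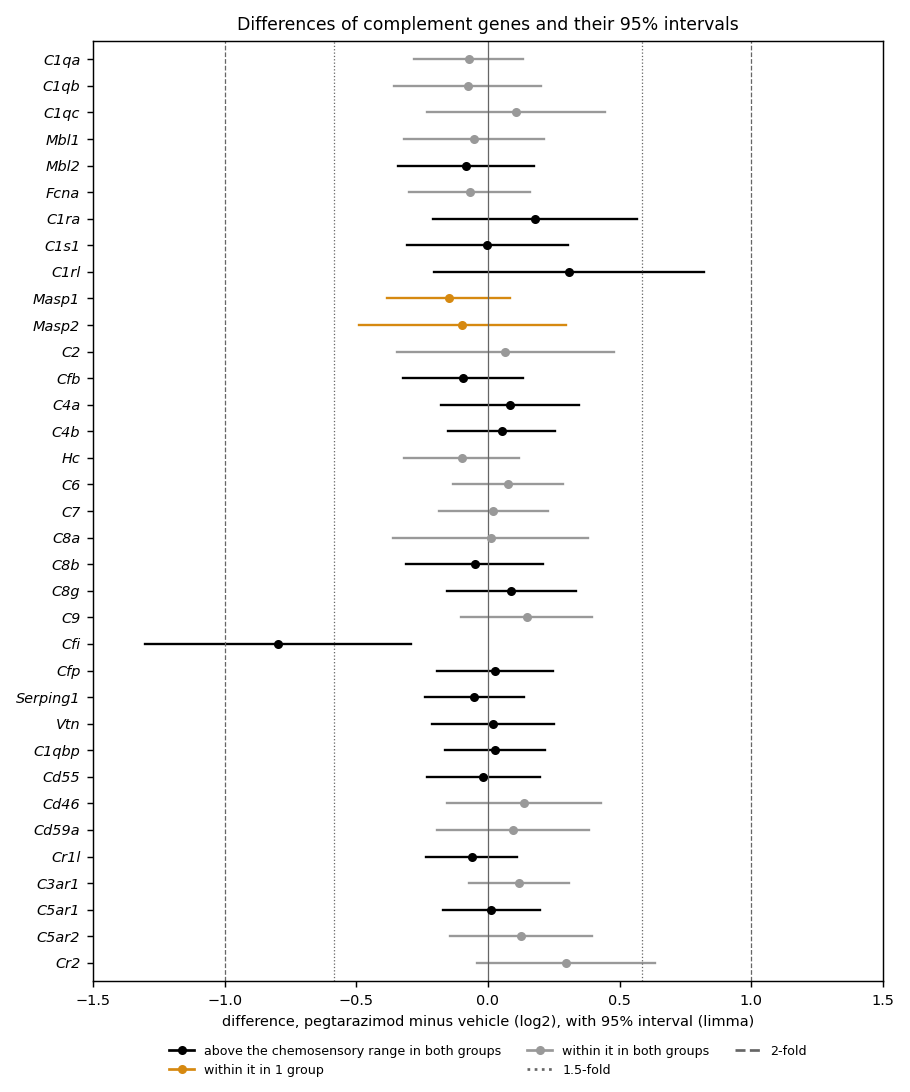
Difference between pegtarazimod and vehicle (log2) of 35 complement genes with its 95% interval from limma; dotted lines mark 1.5-fold and dashed lines 2-fold. All intervals except that of Cfi include 0, and those of Cfi, C1rl and Cr2 reach past 1.5-fold.

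The genes of the fourth component differed little. C4b, the haemolytically active form of C4 in mice, averaged 6.11 ± 0.17 with pegtarazimod and 6.06 ± 0.06 with vehicle (log2, SD, n = 5 each), and its interval excluded changes beyond 1.19-fold higher and 1.11-fold lower. C4a differed by 0.08 (interval -0.18 to 0.34). C3, on which all pathways converge, is not analysed here.

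Most of the pore-forming genes were dim. Hc (component C5), C6, C7, C8a and C9 lay within the chemosensory range in both groups, and C8b and C8g lay above it. The dim genes differed by -0.10 (Hc), 0.08 (C6), 0.02 (C7), 0.01 (C8a) and 0.15 (C9). Within replicates 1 and 2 C8a differed by 0.39, and within replicates 3 to 5 by -0.24 (limma adjusted p = 0.488 and 0.643). C8g, which encodes the gamma subunit of C8, a lipocalin, read 7.41, 7.27, 7.22, 7.79 and 7.48 with pegtarazimod and 7.27, 7.52, 7.41, 7.34 and 7.18 with vehicle (log2). Only pegtarazimod replicate 4 exceeded all vehicle values. Its difference of 0.09 ± 0.11 (SE) excluded changes beyond 1.26-fold higher and 1.11-fold lower. C8b differed by -0.05 (-0.31 to 0.21). Over the 7 terminal genes, 0 were called (against 4.89% of all genes) and the differences ran from -0.10 to 0.15.

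Among soluble regulators, Cfi carried the largest difference of all members. Factor I is the protease that inactivates C3b and C4b with the help of cofactors. Cfi read 5.30, 5.72, 5.46, 6.23 and 6.34 with pegtarazimod and 5.89, 6.40, 6.74, 6.96 and 7.06 with vehicle (log2, replicates 1 to 5). Each pegtarazimod array was below the vehicle array of the same number, but pegtarazimod replicates 4 and 5 were above vehicle replicate 1, so the groups overlapped. The means were 5.81 ± 0.46 with pegtarazimod and 6.61 ± 0.48 with vehicle (SD, n = 5 each), a difference of -0.80 ± 0.23 (SE) with an interval of -1.30 to -0.29. An exact two-sided permutation test over the arrays gave p = 0.0317, not adjusted for having taken the member with the lowest p, where 0.00794 is the smallest value that 5 against 5 allows. In whole cultures, fewer cells that transcribe Cfi and less of its RNA per cell cannot be told apart.

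The call on Cfi depended on how the spread between replicates was treated. Both groups were lower in replicates 1 and 2 than in replicates 3 to 5, at 5.51 and 6.01 with pegtarazimod and at 6.14 and 6.92 with vehicle. Pegtarazimod minus vehicle was -0.63 within replicates 1 and 2 (adjusted p = 0.220) and -0.91 within replicates 3 to 5 (adjusted p = 0.0368, the only member called there, against 3.34% of all genes). With the 2 subsets as a block, a grouping seen in these same arrays and not named in the labels, the adjusted p was 0.00638. Cfi was the only member called, where 9.33% of all genes were. Fitted with the replicate number as a block, which the labels do not give as a pairing, Cfi was again the only member called (adjusted p = 0.00107), where 8.23% of all genes were. The call was also gained on leaving out vehicle replicate 1 (-0.98, adjusted p = 0.0208), pegtarazimod replicate 4 (0.0457) or pegtarazimod replicate 5 (0.0445), and not on leaving out any of the other 7 arrays (0.0875 to 0.168). Over all genes, 455, 603 and 430 were called higher and 380, 642 and 369 lower without those arrays in turn. Without the dimmest 50% of genes the adjusted p was 0.0482. Among the genes kept there, 672 were called higher and 624 lower, beside 488 and 466 of all genes in the fit as reported. The difference stayed below 0 in all 22 alternatives, at -0.98 to -0.63, with adjusted p of 0.00107 to 0.220. Leaving out dim genes, the priors, the blocks and the probe-set choices cannot change the difference itself (-0.80). Those alternatives bear only on its spread and its adjusted p.

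**Figure D3:**
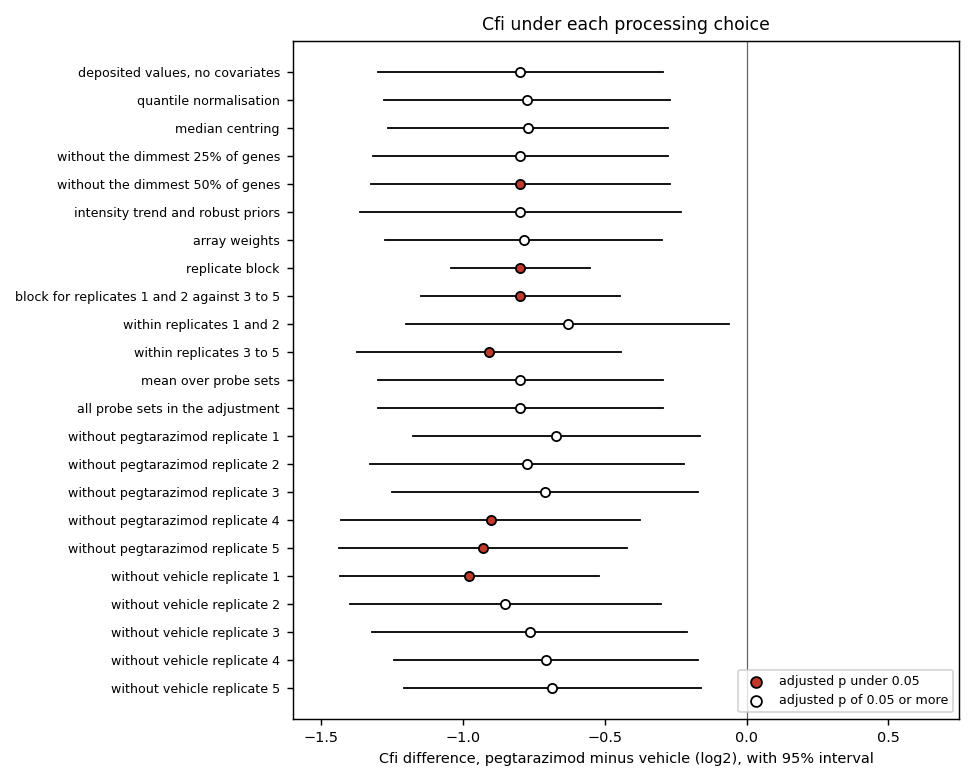
Cfi difference, pegtarazimod minus vehicle (log2), with its 95% interval for the fit as reported (top) and 22 alternatives; filled points have an adjusted p under 0.05. All intervals lie below 0, while 7 of the 22 alternatives pass over all genes.

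The remaining soluble regulators differed by no more than 0.05. Serping1, the gene of C1 inhibitor, which blocks C1r, C1s and the MASPs, averaged 5.84 ± 0.13 with pegtarazimod and 5.89 ± 0.07 with vehicle (log2, SD, n = 5 each). Its interval excluded changes beyond 1.10-fold higher and 1.18-fold lower. Cfp (properdin, which stabilises the alternative convertase) differed by 0.03 and Vtn (vitronectin, which binds terminal complexes) by 0.02. C1qbp, whose product binds C1q heads but resides mainly in mitochondria, read 9.84 to 10.18 with pegtarazimod and 9.98 to 10.09 with vehicle, a difference of 0.03 (-0.16 to 0.22).

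Of the 4 membrane regulators, Cr1l and Cd55 lay above the range in both groups. Cr1l encodes Crry, the rodent protein that limits C3 and C4 deposition on cells. It read 8.47, 8.47, 8.49, 8.57 and 8.46 with pegtarazimod and 8.64, 8.46, 8.52, 8.49 and 8.67 with vehicle (log2). The groups overlapped, and no array was below 8.46 or above 8.67. The difference was -0.06 ± 0.08 (SE), the smallest SE of any member, and excluded changes beyond 1.08-fold higher and 1.18-fold lower. Cd55, the gene of decay-accelerating factor, averaged 6.73 ± 0.16 with pegtarazimod and 6.75 ± 0.13 with vehicle (SD, n = 5 each) and excluded changes beyond 1.15-fold higher and 1.17-fold lower. Cd46, which in mice is known mainly from testis, and Cd59a, an inhibitor of the membrane pore, lay within the range in both groups and differed by 0.14 and 0.10. Within replicates 1 and 2 Cd46 differed by -0.14, and within replicates 3 to 5 by 0.32 (limma adjusted p = 0.753 and 0.252).

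Of the receptors, C5ar1, the main receptor of the C5a fragment, was just above the range, at 4.49 ± 0.11 with pegtarazimod and 4.48 ± 0.08 with vehicle (log2, SD, n = 5 each). Its interval ran from -0.17 to 0.20. C3ar1, the receptor of C3a, C5ar2, another receptor of C5a, and Cr2 lay within the range in both groups, with differences of 0.12 for C3ar1 and 0.13 for C5ar2. Within replicates 1 and 2 C5ar2 differed by 0.39, and within replicates 3 to 5 by -0.05 (limma adjusted p = 0.236 and 0.907). Cr2, which in mice encodes complement receptors 1 and 2, read 4.04, 3.48, 4.08, 3.54 and 3.39 with pegtarazimod and 3.54, 3.41, 3.19, 3.76 and 3.14 with vehicle. Pegtarazimod replicates 1 and 3 were above all vehicle arrays, and the others overlapped with them. The difference was 0.30 ± 0.16 (SE, adjusted p = 0.342), by 0.28 within replicates 1 and 2 and by 0.30 within replicates 3 to 5, and its interval reached 1.55-fold higher.

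Over all 35 members, 20 differences were above 0 and 15 below, with a median of 0.02 beside 0.00 over all genes. The median size of a difference was 0.08 for members and 0.11 for all genes, at a median SE of 0.12 and 0.11. The whole 95% interval lay within 1.5-fold in both directions for 32 members (91.4%, against 86.4% of all genes), within 2-fold for 34 (97.1%, against 97.1%) and within 1.25-fold for 17. Of the 17 members above the chemosensory range in both groups, 15 were bounded within 1.5-fold, all except Cfi and C1rl. To pass over all genes, a member's difference would have had to reach 0.30 to 0.88 on the log2 scale (median 0.43), depending on its spread. For the 16 members within the range in both groups, the intervals bound the array signal only, and a change in transcripts too few to lift the signal is not excluded. No member had groups that did not overlap (0 of 35, against 6.71% of all genes).

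Other genes of the pathway were read from a list of 33, of which 28 were measured. Of these, 0 were called higher and 0 lower (against 2.50% and 2.39% of all genes). An unadjusted limma p below 0.05 was found for 5 of 28 (against 19.0% of all genes). The median difference was 0.09, beside 0.00 over all genes. Mpo, the gene of myeloperoxidase, averaged 4.25 ± 0.24 with pegtarazimod and 4.32 ± 0.11 with vehicle (log2, SD, n = 5 each), within the chemosensory range with pegtarazimod. Its interval excluded changes of the signal beyond 1.13-fold higher and 1.25-fold lower. Clu, which encodes clusterin, an inhibitor of the terminal complex, had a wide interval in the fit without a block. It read 6.24, 7.39, 8.75, 9.46 and 8.56 with pegtarazimod and 7.46, 7.34, 8.98, 9.48 and 9.03 with vehicle. Replicates 1 and 2 of both groups were below all others, and the interval of the difference (-1.55 to 0.80) allowed 2.93-fold lower and 1.74-fold higher. With the 2 subsets as a block the interval was -0.82 to 0.07 (adjusted p = 0.324), and with the replicate number as a block it was -0.73 to -0.03 (adjusted p = 0.195).

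Further listed genes, named after their values were seen, are C4bp, Cpn1 and Susd4, of which each was called within 1 of the replicate subsets. They were 2 of 28 genes within replicates 1 and 2 (against 6.30% of all genes) and 1 of 28 within replicates 3 to 5 (against 3.34%). For none of the 3 did the difference between the subsets pass over all genes. C4bp, whose product is a cofactor of factor I, read 7.30, 7.43, 6.46, 5.94 and 5.42 with pegtarazimod and 6.45, 6.28, 6.28, 5.85 and 6.45 with vehicle (log2). It differed by 1.00 within replicates 1 and 2 (adjusted p = 0.0434) and by -0.26 within replicates 3 to 5 (0.650), and the adjusted p of the difference between the subsets was 0.372. Cpn1, the catalytic subunit of the carboxypeptidase that inactivates C3a and C5a, differed by -0.42 over all arrays (adjusted p = 0.159), by -0.02 within replicates 1 and 2 and by -0.70 within replicates 3 to 5 (adjusted p = 0.0177), with an adjusted p of 0.458 between the subsets. Susd4, which encodes a membrane protein with complement control domains, differed by 0.32 over all arrays (adjusted p = 0.0833), by 0.55 within replicates 1 and 2 (0.0292) and by 0.16 within replicates 3 to 5 (0.548), with an adjusted p of 0.635 between the subsets.

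**Figure D4:**
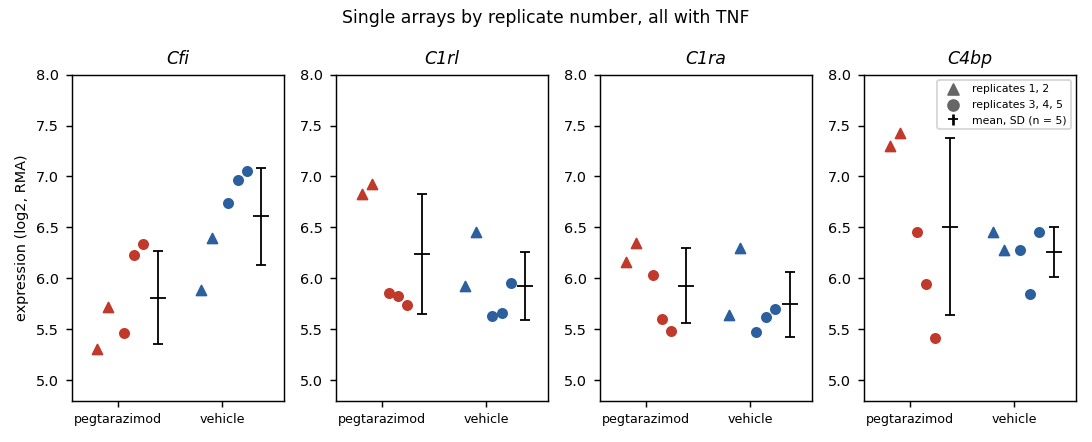
Expression (log2, RMA) of Cfi, C1rl, C1ra and C4bp on single arrays, pegtarazimod left of vehicle, triangles for replicates 1 and 2 and circles for replicates 3 to 5, with mean and SD (n = 5). C1rl and C4bp are highest in pegtarazimod replicates 1 and 2, whereas Cfi is lower in replicates 1 and 2 of vehicle than in its other replicates.

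Across the members, the 2 subsets gave differences of one sign for 17 of 35 genes. For 3 members (C1rl, C2 and Cd46) the difference between the subsets had an unadjusted limma p below 0.05. For 0 members was the adjusted p below 0.05, where 0.0256% of all genes passed. The shares of all genes for the sign count and the unadjusted count were not computed, so these counts cannot be compared with all genes.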

How the data were processed

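Expression of 10 single-colour arrays was read as the authors' log2 values, 1 per probe set and array. The submitters' processing notes name oligo and RMA, a method that subtracts background, quantile-normalises the arrays and combines the probes of a set. The sources used here do not give versions, genome build or detection calls. Because of the quantile step, a change shared by most genes would not be visible.

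Probe sets were named through GEO's platform annotation (19572 of 22203 with 1 symbol, 2631 unnamed and left out). Each of those 19572 was found by its gene identifier in RefSeq's GRCm38.p6 table. The probe set with the highest mean stood for a gene, which left 19505 genes, and each measured member had 1 probe set. Pegtarazimod minus vehicle was estimated without covariates by lmFit and eBayes of limma 3.58.1 (R 4.3.3; tested on simulated data), with Benjamini-Hochberg adjustment over all 19505 genes, a threshold of 0.05 and 95% intervals per gene, not adjusted for their number. Background was read from olfactory and vomeronasal receptor genes (symbols starting with Olfr or Or and a digit, Vmn1r or Vmn2r). The members, lists and tests were chosen with earlier results of these data known. Every measured member was named, with C3, Clu and Mpo of the other complement genes. Other genes named were chosen after their values were seen. Alternatives were quantile normalisation, median centring, array weights, robust priors with an intensity trend, leaving out the dimmest 25% or 50% of genes, blocks for the replicate number or for replicates 1 and 2 against 3 to 5, fits within those subsets from a model with 4 groups, the mean over probe sets, all probe sets, each array left out, and other background limits. Correlations between arrays over all genes were at least 0.973, and no pair of arrays held the same value for more than 2 genes, so none was counted as a copy. Promoter sequences were RefSeq's on GRCm38.p6. Figures used Python 3.11.15 and matplotlib 3.10.9.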

Additional observations from a re-analysis of the deposited data

Results flagged for a closer look

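Single arrays stood apart from the other 4 of their group for 11 of 126 sets of 5 values (63 complement genes in 2 groups), by Dixon's gap test at 95%, which flags about 5% of sets by chance. Among members (log2), Fcna was 4.01 in vehicle replicate 5 against 3.70 to 3.78 in the others, C1ra 6.30 in vehicle replicate 2 against 5.48 to 5.70, and C2 2.37 in vehicle replicate 5 against 3.19 to 3.47. C4a was 4.38 in pegtarazimod replicate 3 against 4.72 to 4.81 in the others, and 5.01 in vehicle replicate 5 against 4.47 to 4.61. Cr1l was 8.57 in pegtarazimod replicate 4 against 8.46 to 8.49, and C5ar1 was 4.30 in pegtarazimod replicate 3 against 4.50 to 4.58. Among the other complement genes, C1rb was 5.63 in vehicle replicate 2 against 5.31 to 5.36, the same array in which C1ra was high. C4bp was 5.85 in vehicle replicate 4 against 6.28 to 6.45, and Thbd was 4.28 in pegtarazimod replicate 5 against 4.59 to 4.70. The widest gap was that of Crp, the gene of C-reactive protein, at 6.19 in pegtarazimod replicate 2 against 4.39 to 4.57 in the other pegtarazimod arrays.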

How the results depend on the processing

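The count of members called higher was 0 in the fit as reported and under 21 of 22 alternatives, and 1 (C1rl) within replicates 1 and 2. The count called lower was 0, and 1 (Cfi) without the dimmest 50% of genes, with a replicate block, with a block for replicates 1 and 2 against 3 to 5 and within replicates 3 to 5, and 0 to 1 on leaving out single arrays. Of the 28 other complement genes, 2 were higher within replicates 1 and 2 (C4bp and Susd4), where 6.30% of all genes were called. Within replicates 3 to 5, 1 was lower (Cpn1), where 3.34% of all genes were called. On leaving out single arrays, 0 to 1 were higher (Fcnb, without pegtarazimod replicate 4) and 0 to 1 lower (Cpn1, without pegtarazimod replicate 2). Over all genes 488 were higher and 466 lower. These were 783 and 823 with the replicate block, 877 and 943 with the subset block, and 672 and 624 without the dimmest 50% of genes. Within replicates 3 to 5, 292 were lower. Leaving out single arrays gave 230 to 603 higher and 207 to 642 lower. Same-numbered arrays deviated together with correlations of 0.0993 to 0.310. Replicates 1, 2 and 4 correlated best with their own number in both directions, and replicates 3 and 5 in 1 direction each. The labels give no pairing, so the fit as reported used none, and whether the arrays were paired is not known. With the replicate block Cfi had a limma adjusted p of 0.00107, and no other member was called. With the subset block, 32 of 35 intervals lay within 1.5-fold. Of 861 single differences of 41 named genes under the alternatives, 793 kept sign and side of the threshold. Another 12 gained a call, 0 reversed a call and 56 changed sign without passing in either fit. Blocks, gene filters, priors and probe-set choices cannot change these differences, so the sign of part of the 793 was fixed in advance. Members within background in both groups numbered 16, 14 at the 90th percentile and 12 at the lower quartile of all genes. C1qb and C8a dropped out at both of these limits, and Mbl1 and C3ar1 at the lower quartile only. Signal near background limits 16 members, and 5 arrays a group limit all of them.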
